A study of Mus musculus with 141 samples.

Results

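Oxidative phosphorylation, the chain of inner-membrane complexes with which mitochondria make ATP, was examined through 109 genes in single progenitor cells of mouse bone marrow. The members were all protein-coding genes in the counts whose symbol marks a subunit or assembly factor of complexes I to V, which gave 96 nuclear-encoded genes, together with the 13 protein-coding genes of mitochondrial DNA, of 46078 gene rows in all. The 96 comprised 85 subunit genes and 11 assembly factors (Ndufaf and Uqcc genes). BMCP and GMP were compared in cells from 3 female C57BL/6 mice. BMCP, the basophil/mast cell progenitors, were sorted as live Lin-, cKit+, Sca1-, integrin beta7hi and CD16/32hi cells, and GMP, the granulocyte/monocyte progenitors, lay in the CD34+ CD16/32hi gate outside them. No treatment or genetic change is given for either group, and the labels do not say which mouse a cell came from. Each population thus counted as 1 sample, with 89 BMCP and 41 GMP kept after filtering. Differences are described by their size, with no test.

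Complex I (NADH dehydrogenase) and complex II (succinate dehydrogenase) feed electrons to ubiquinone, complex III passes them to cytochrome c, and complex IV (cytochrome c oxidase) passes them to oxygen. Complexes I, III and IV pump protons, and complex V, the ATP synthase, uses the resulting gradient to make ATP. Mitochondrial DNA encodes core membrane subunits of complexes I, III, IV and V, whereas all of complex II and most subunits of the others are encoded in the nucleus. Proliferating progenitors use the chain both for ATP and to regenerate oxidised cofactors for biosynthesis.

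Levels below are summed counts scaled to 1e6 nuclear-encoded counts (CPM) over the cells of a population, and ratios are log2 of (CPM + 1) in BMCP over GMP, so that a negative value means lower in BMCP. The 89 BMCP held 84242320 nuclear-encoded counts and the 41 GMP held 55520835, and the medians per cell were 893037 and 1309887. Genes with a count numbered 5440 in the median BMCP and 7001 in the median GMP. Counts per spike-in count were 7.48 in BMCP and 13.7 in GMP, so ratios describe shares of a cell's counts and not amounts per cell. The CPM floor set by 3 counts was 0.0356 in BMCP and 0.0540 in GMP, and these floors cover counting error only. Limits given with a median are order statistics over the genes at 95%. They bound the median and not the spread of single genes, except in short lists, where they are the range. They treat the genes as independent. With 1 sample per population, they give no uncertainty of the difference between the populations. In the count table BMCP numbers 1 to 47, BMCP numbers 48 to 94 and all GMP stood in separate blocks of columns, and block and population cannot be told apart. As a check of the labels, the 6 neutrophil progenitor markers summed to 0.00754% of counts in BMCP and 5.01% in GMP, and the 7 mast cell markers, 1 of them without a read, to 1.51% and 0.121%. Basophil markers summed to 0.156% and 0.0175%, erythroid markers to 0.0328% and 0.00211%, and monocyte and dendritic cell markers to 0.0364% and 0.0554%. The 5 monocyte and dendritic cell markers were split, with 3 lower and 2 higher in BMCP (ratios from -7.84 to 4.21), so their sum gives no common direction. Megakaryocyte markers summed to 0.0336% and 0.0149%, and lymphoid and eosinophil markers to at most 0.00103% in either population.

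Oxidative phosphorylation genes were lower in BMCP across all 5 complexes and in both genomes. Of the 96 nuclear-encoded members, 91 reached 1 CPM in either population, and 85 of these 91 were lower in BMCP against 48.8% of all genes tested. The median log2 ratio over the 91 was -0.97 (limits of the median -1.04 to -0.75), whereas over all 14554 nuclear-encoded genes with 1 CPM it was 0.04. At least 2-fold lower were 41 members, where 21% of all genes were, and at least 2-fold higher were 3, where 25.8% were. With a minimum of 20 CPM, 82 of 87 members were lower, against 49.1% of all genes, 39 were at least 2-fold lower, against 18.7%, and 2 were at least 2-fold higher, against 21.6%. The 5 members under 1 CPM were Cox6a2, Cox7a1, Cox8b, Cox8c and Ndufa4l2, all of complex IV. In the plot of ratios by complex, most points lie below 0 in each complex while the interquartile box of all genes spans it.

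**Figure D1:**
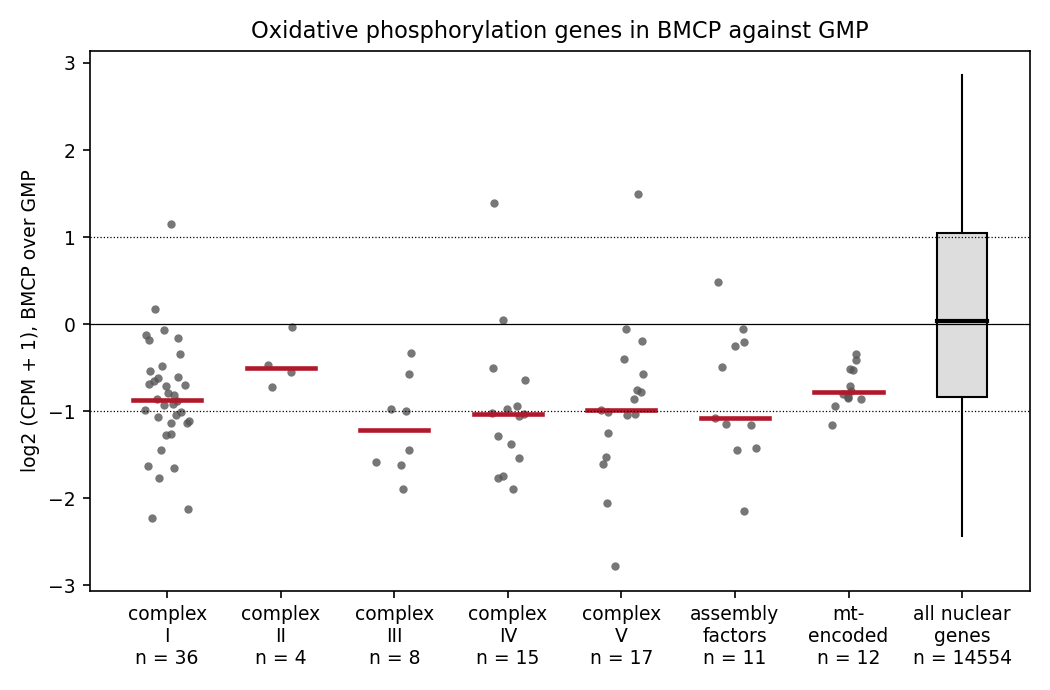
Log2 ratio of CPM + 1 in BMCP over GMP for each member with at least 1 CPM, by complex, with red bars at the class medians and dotted lines at 2-fold. The box shows the quartiles of all 14554 nuclear-encoded genes, with whiskers from the 5th to the 95th percentile, and the class medians run from -1.22 in complex III to -0.51 in complex II.

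The 85 nuclear-encoded subunit genes together took up 1.06% of the nuclear-encoded counts in BMCP and 1.83% in GMP, a 1.72-fold difference. In single cells their sum ran from 0.238% to 2.14% with a median of 1.01% in BMCP, and from 1.05% to 2.60% with a median of 1.76% in GMP. The ranges overlapped, but 51 of 89 BMCP lay below the lowest GMP, 8 of 41 GMP lay above the highest BMCP and 3 BMCP exceeded the GMP median. Such separation was not particular to these genes. For the mitochondrial and cytosolic ribosome genes described below, 68 and 73 BMCP lay below the lowest GMP, and 13 and 0 GMP above the highest BMCP. BMCP numbers 1 to 47 and 48 to 94 had medians of 1.01% and 1.01%. The median log2 ratio of the subunits against all GMP was -0.89 with the first set of BMCP and -0.93 with the second.

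**Figure D2:**
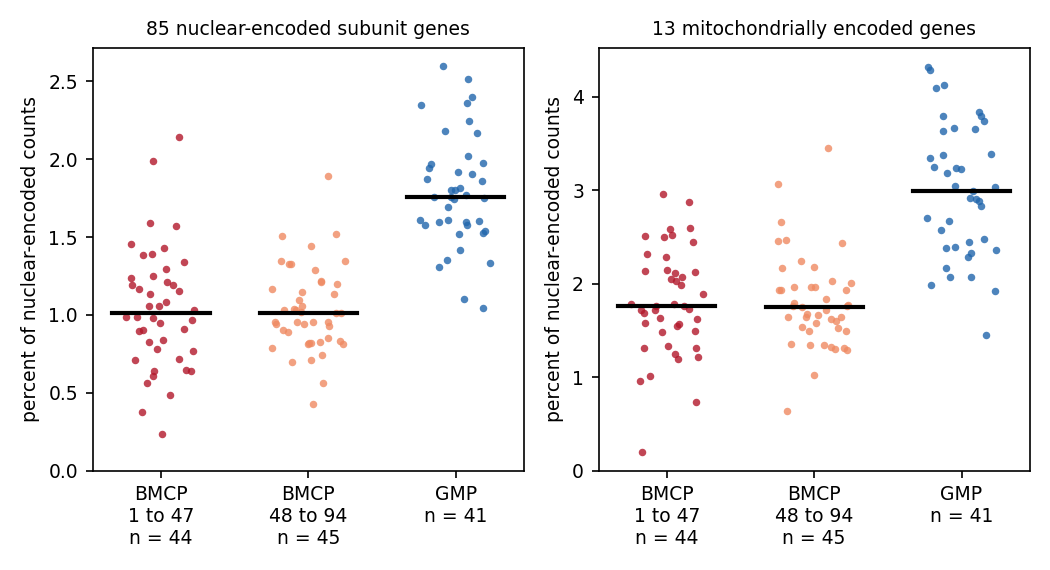
Summed counts of the 85 nuclear-encoded subunit genes and of the 13 mitochondrially encoded genes, as a percent of each cell's nuclear-encoded counts, with 1 point per cell and bars at the medians. Both BMCP sets have medians near 1.01% for the nuclear subunits and 1.76% for the mitochondrial genes, below the GMP medians of 1.76% and 2.99%.

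Promoter sequence was available from RefSeq for 77 of the 96 nuclear-encoded members, as 82 windows of 300 bases (250 before the start and 50 after it, GRCm38.p6). Factors known to act on nuclear genes of the respiratory chain include NRF1, the ETS-family factor GABP and YY1, and the windows were searched on both strands for GCATGCGC (NRF1, whose matches on the 2 strands can overlap in a palindrome), CCGGAAG (ETS) and AAGATGGC (YY1, which can overlap an ETS match in its first AAG). NRF1 letters were found in 14.6% of member windows and 3.52% of the 21263 windows of all protein-coding genes, and a longer palindromic form in 8.54% and 1.33%. The ETS letters were found in 21.95% and 11.6%, and the YY1 letters in 13.4% and 3.05%. These matches describe letters and show no binding. The upstream 250 bases of 4 members are printed, with matches to the 3 motifs in capitals. They are Atp5k, the member with the lowest ratio (-2.78, chr5:108434400-108434649, minus strand), Cox6a1 (-0.94, chr5:115348959-115349208, minus strand), Atp5j (-1.04, chr16:84834977-84835226, minus strand), and Ndufaf1, one of the few members higher in BMCP (0.49, chr2:119662835-119663084, minus strand).
Atp5k: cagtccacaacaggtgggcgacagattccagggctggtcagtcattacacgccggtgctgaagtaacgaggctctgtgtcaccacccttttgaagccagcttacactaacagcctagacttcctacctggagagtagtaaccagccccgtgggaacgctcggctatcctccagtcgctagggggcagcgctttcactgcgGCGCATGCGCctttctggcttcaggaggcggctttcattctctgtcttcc
Cox6a1: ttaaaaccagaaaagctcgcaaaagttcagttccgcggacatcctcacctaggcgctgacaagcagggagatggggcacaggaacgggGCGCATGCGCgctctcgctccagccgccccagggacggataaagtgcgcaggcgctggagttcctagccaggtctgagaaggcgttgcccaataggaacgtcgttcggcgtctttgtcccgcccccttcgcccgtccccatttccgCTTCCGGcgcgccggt
Atp5j: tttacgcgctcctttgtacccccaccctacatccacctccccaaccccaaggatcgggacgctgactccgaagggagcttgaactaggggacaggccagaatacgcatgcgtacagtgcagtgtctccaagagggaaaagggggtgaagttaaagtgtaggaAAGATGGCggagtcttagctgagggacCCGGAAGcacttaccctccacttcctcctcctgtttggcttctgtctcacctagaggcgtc
Ndufaf1: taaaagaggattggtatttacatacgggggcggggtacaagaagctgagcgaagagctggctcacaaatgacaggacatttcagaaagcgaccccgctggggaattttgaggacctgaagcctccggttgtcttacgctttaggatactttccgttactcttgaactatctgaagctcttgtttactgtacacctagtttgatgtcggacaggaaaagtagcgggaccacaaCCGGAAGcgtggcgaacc
Atp5k and Cox6a1 carry the NRF1 letters in the printed stretch, Cox6a1, Atp5j and Ndufaf1 the ETS letters (reversed in Cox6a1, as CTTCCGG), and Atp5j the YY1 letters. The ETS letters were thus present upstream of members on either side of 0. All 4 printed stretches hold a match, whereas 41.46% of member windows do, so these 4 are not typical. A second window of Atp5j (upstream bases chr16:84835626-84835875) holds no match. Members with and without each motif had similar medians: -0.98 (12 genes) and -0.92 (63) for NRF1, -1.01 (18) and -0.88 (57) for ETS, and -1.04 (11) and -0.90 (64) for YY1. Among the factors themselves, Nrf1 stood at 147 CPM in BMCP and 92.5 in GMP (log2 0.66), Gabpa at 47.96 and 54.2 (-0.17, with -1.17 and 0.21 for the 2 BMCP sets), Gabpb1 at 61.04 and 96.2 (-0.65) and Yy1 at 55.4 and 108 (-0.95).

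Complex I was lower in BMCP for 34 of its 36 nuclear-encoded subunits, with a median log2 ratio of -0.87 (limits -1.06 to -0.66). At least 2-fold lower were 14, and 1 was at least 2-fold higher. The sum of complex I was 0.339% of counts in BMCP and 0.554% in GMP. The 7 core subunits, which carry the flavin and iron-sulfur clusters, had a median of -0.66, and the 29 accessory subunits, which surround the core, had -0.92. This order did not hold after subtracting the median of other genes of like transcript length. Over genes with 20 CPM the medians were then -0.48 for the core and -0.43 for the accessory subunits.

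Among accessory subunits, Ndufa5 ran from 0 to 174 CPM (median 2.85) in BMCP cells and from 0 to 377 (median 71.6) in GMP cells. BMCP cells were mostly at the bottom of the GMP range, and the summed levels were 20.6 and 99.8 CPM (log2 -2.22). Ndufb2 had cell medians of 5.29 and 30.9 CPM and maxima of 86.4 and 299.6, with a summed log2 ratio of -2.13, which was -1.87 without the highest cell of each population. Ndufc1 had no reads in the median BMCP and 47.7 CPM in the median GMP (log2 -1.76). Members at least 2-fold lower also included the accessory subunits Ndufa1, Ndufa11, Ndufa12, Ndufb4, Ndufb5, Ndufb6, Ndufb8, Ndufb10 and Ndufs6 (-1.66 to -1.01) and the core subunit Ndufv1 (-1.14). Ndufv1, which binds NADH, was at 93.6 CPM in BMCP and 207 in GMP.

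Ndufs1, the largest subunit of the electron-input module, went the other way. It ran from 0 to 886 CPM with a median of 9.54 in BMCP cells, and from 0 to 492 with a median of 44.3 in GMP cells. The summed level was 149 CPM in BMCP and 67.02 in GMP (log2 1.15, and 1.01 and 1.22 for the 2 BMCP sets). The sum and the cell medians thus pointed in opposite directions: 24 of 89 BMCP and 5 of 41 GMP had no read, while the highest BMCP exceeded every GMP value. Ndufs1 lies at chr1:63143596-63176833 (GRCm38) and its span overlaps Eef1b2, whose reads cannot be parted from it by strand. Ndufa10 was at 277 and 244 CPM (0.18), again with a lower cell median in BMCP (12.8) than in GMP (217). Ndufab1, the mitochondrial acyl carrier protein, had a ratio of -0.07 that rested on 1 cell. BMCP 3 gave 31.9% of the BMCP reads, the ratio was 1.04 with BMCP numbers 1 to 47 and -1.78 with numbers 48 to 94, and it was -0.44 without the highest cell of each population.

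Complex II, the only complex shared with the citric acid cycle, had the smallest median difference of the 5 complexes by summed counts, at -0.51, but the largest, -2.73, by the medians of the cells' CPM. By summed counts all 4 subunits were lower in BMCP, none by 2-fold. Sdha, the flavoprotein, was at 298 CPM in BMCP and 491 in GMP (-0.72), and its cell values ran from 0 to 1296 (median 71.2) and from 0 to 1431 (median 326). The membrane anchors Sdhc and Sdhd had ratios of -0.55 and -0.47. Sdhb, the iron-sulfur subunit, ran from 0 to 919 CPM with a median of 176 in BMCP cells and from 0 to 722 with a median of 196 in GMP cells. The summed levels of Sdhb were 223 and 229 CPM (-0.04), and 39 of 89 BMCP lay above the GMP median.

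Complex III was lower for all 8 nuclear-encoded subunits, 4 of them at least 2-fold, with a median of -1.22 and a range over the genes of -1.89 to -0.34. The small subunits Uqcrb, Uqcr11, Uqcrq and Uqcr10 had the lowest ratios. Ratios of single genes are not adjusted for transcript length, and other protein-coding genes with short transcripts also had lower ratios (given below). Uqcrq ran from 0 to 399 CPM (median 30.1) in BMCP cells and from 0 to 407 (median 196) in GMP cells, and the summed levels were 62.4 and 189 (-1.58). The ranges overlapped throughout, with 25 of 89 BMCP and 1 of 41 GMP at 0. Uqcrb was at 17.98 and 69.3 CPM (-1.89), but 43.4% of its 50-base words also occur in other annotated genes, so its level is uncertain. Uqcr11 was at 45.99 and 143 CPM (-1.62) and Uqcr10 at 43.9 and 121 (-1.44). The large core proteins differed less, with -0.57 for Uqcrc1 (384 and 571 CPM) and -0.97 for Uqcrc2 (223 and 439). Uqcrfs1, the Rieske iron-sulfur protein, had -0.99 and the hinge protein Uqcrh -0.34.

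Complex IV had the largest difference in summed level, 0.151% of counts in BMCP and 0.329% in GMP, or 2.18-fold. Its sum separated the cells most: 66 of 89 BMCP lay below the lowest GMP, 21 of 41 GMP lay above the highest BMCP and 0 BMCP exceeded the GMP median. Of 20 genes, 15 reached 1 CPM. Of these, 13 were lower, 9 of them by 2-fold or more, and the median was -1.03 (limits -1.53 to -0.64).

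Cox4i1, the ubiquitous form of subunit 4 and a regulatory subunit, ran from 0 to 1176 CPM with a median of 411 in BMCP cells and from 396 to 1496 with a median of 772 in GMP cells. Of 89 BMCP, 42 lay below the lowest GMP, and the summed levels were 420.4 and 859.8 (-1.03). Ndufa4, first assigned to complex I and now placed in complex IV, ran from 0 to 616 CPM (median 131) in BMCP and from 142 to 1009 (median 451) in GMP. For Ndufa4, 46 of 89 BMCP lay below every GMP and 10 of 41 GMP above every BMCP (169 and 491 CPM, log2 -1.53). Cox7b ran from 0 to 253 CPM (median 42.5) and from 38.3 to 564 (median 170.1), with 11 BMCP and 0 GMP lacking a read (-1.89). Cox6c was at 62.1 and 214 CPM (-1.77), and Cox7a2, Cox6b1, Cox8a and Cox5b had ratios of -1.37, -1.29, -1.06 and -1.02.

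The paralogue pairs of complex IV, whose second members are known as forms of particular tissues, were read mostly from the general forms. The lung form Cox4i2 had no read in BMCP, and of its 2.36 CPM in GMP, 83.2% came from GMP 36, leaving 0.407 CPM without that cell. The muscle and heart form Cox6a2 had no read in BMCP, and its 0.811 CPM in GMP came from a single cell, against 126 and 244 CPM for Cox6a1. The testis form Cox6b2 stood at 32.3 and 51.1 CPM (-0.64), beside 120.1 and 295 for Cox6b1. The muscle and heart form Cox7a1 was at 0.0712 and 0.0180 CPM, each from a single cell. Cox8b and Cox8c had no read in either population, and Ndufa4l2 had 0.0356 CPM in BMCP and no read in GMP. Cox7a2l, which takes part in joining complexes III and IV into supercomplexes, did not follow Cox7a2: it stood at 140.2 and 135 CPM (0.05). Cox7b2 had 1.67 CPM in BMCP, 52.5% of it from BMCP 63, and 0.0180 in GMP.

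**Figure D3:**
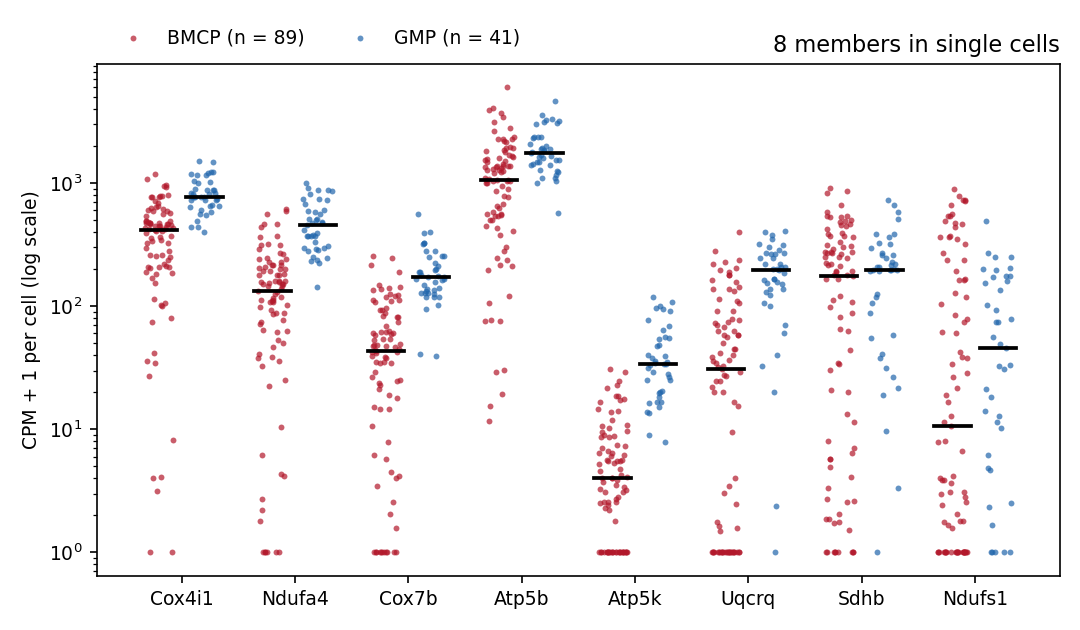
CPM + 1 per cell on a log axis for 8 members, with BMCP in red, GMP in blue and bars at the medians. BMCP medians lie below GMP medians for all 8, by least for Sdhb (176 and 196 CPM) and by most, relative to GMP, for Atp5k (3.01 and 32.9 CPM).

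Complex V was lower for 16 of 17 nuclear-encoded genes, 8 of them at least 2-fold, with a median of -0.99 (limits -1.25 to -0.58), and took up 0.395% and 0.650% of counts. Atp5b, the catalytic beta subunit, ran from 10.7 to 5983 CPM (median 1066) in BMCP cells and from 567 to 4678 (median 1746) in GMP cells. Although 28 BMCP lay below the lowest GMP, the highest BMCP exceeded all GMP, and the summed levels were 1243 and 2126 CPM (-0.77). Atp5a1, the alpha subunit, was at 892 and 1174 CPM (-0.40), and Atp5c1, the gamma subunit of the central stalk, at 327 and 658 (-1.01). The peripheral stalk subunit Atp5f1 had -0.20.

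Small subunits had the lowest ratios within complex V, and Atp5k had the lowest of all members. As for complex III, these ratios are not adjusted for transcript length. Atp5k, the e subunit involved in dimer formation, ran from 0 to 29.9 CPM (median 3.01) in BMCP cells and from 6.89 to 118 (median 32.9) in GMP cells. Of 89 BMCP, 66 lay below the lowest GMP, and 24 of 41 GMP lay above the highest BMCP. Its summed levels were 4.83 and 39.03 CPM (-2.78, and -2.94 and -2.69 for the 2 BMCP sets). Atp5mpl was at 45.4 and 191 CPM (-2.05) and Atp5e, the epsilon subunit, at 68.9 and 201 (-1.53). Atp5l had -1.60, with 84.8% of its words shared with pseudogenes, and Atp5o, Atp5j and Atp5g1 had -1.25, -1.04 and -1.04. The annotated span of Atp5j overlaps Gabpa, and reads of the overlap cannot be parted by strand.

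Atp5s, a factor named coupling factor B and not a stable part of the enzyme, was the member with the highest ratio. It was at 73.9 CPM in BMCP and 25.6 in GMP (1.49), with cell medians of 0 in both and maxima of 2096 and 487. It reached 10 thinned reads in 16 of 86 BMCP and 6 of 40 GMP, so the sums rested on a minority of cells. Without the highest cell of each population the ratio was 1.52. Of the genes for the c subunit of the rotor ring, Atp5g3 was at 217 and 325 CPM (-0.58) and Atp5g2 at 3.41 and 3.57, with 54.4% of the BMCP reads of Atp5g2 from 1 cell.

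Per kilobase of transcript, the most abundant nuclear-encoded members in GMP were Cox4i1 (1139 CPM per kilobase), Atp5b (1109.8) and Ndufa4 (1068). In BMCP they were Atp5b (649), Cox4i1 (557) and Ndufa6 (419), an accessory subunit of complex I whose ratio was -0.16. Ndufa4 came next in BMCP at 367 CPM per kilobase.

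The 11 assembly factors, which build complexes I and III without staying in them, had a median of -1.08 with wide limits (-1.44 to -0.06). They were lower for 10 of 11 and at least 2-fold lower for 6, and they were read in few cells. Only 7 of the 11 were lower with each of the 2 BMCP sets, whose medians were -0.90 and -0.68. The median of the class was -0.61 with the mean of the cells' CPM and -0.70 after thinning. Ndufaf6 was at 10.1 and 47.98 CPM (-2.14), with 39.4% of its BMCP reads from 1 cell. Without the highest cell of each population its ratio was -2.58. Ndufaf8 and Ndufaf5 had -1.44 and -1.42, Ndufaf2 and Ndufaf4 -1.15 each, and Uqcc2 -1.08. Uqcc3 and Uqcc1 were close to 0 at -0.06 and -0.20. Ndufaf1, which acts on the membrane arm of complex I, was at 46.5 and 32.9 CPM (0.49), with cell medians of 0 in both populations.

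The mitochondrially encoded genes, given per nuclear-encoded counts, were also lower. Of 13 genes, 12 reached 1 CPM and all 12 had negative ratios, with a median of -0.78 (limits -0.86 to -0.52), and mt-Nd3 alone was at least 2-fold lower. Their sum was 1.76 counts per 100 nuclear-encoded counts in BMCP and 2.85 in GMP. In single cells it ran from 0.202 to 3.46 (median 1.76) in BMCP and from 1.45 to 4.32 (median 2.99) in GMP. Thus 19 of 89 BMCP lay below the lowest GMP and 11 of 41 GMP above the highest BMCP. The cells kept had at most 10% of gene counts in mitochondrial genes, a limit that alone left out 3 BMCP and 3 GMP.

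The complex I genes of mitochondrial DNA that were well read had similar ratios: mt-Nd1 -0.94 (2798 and 5385 CPM), mt-Nd6 -0.86 (357 and 649.8), mt-Nd4 -0.85 (1141 and 2052), mt-Nd2 -0.83 (419 and 748) and mt-Nd5 -0.71 (1783 and 2910.3). The complex III gene mt-Cytb ran from 529 to 14500 CPM (median 4829.9) in BMCP cells and from 4461 to 17255 (median 9439) in GMP cells (-0.77). The complex IV gene mt-Co1, the catalytic core subunit, ran from 1182 to 11155 CPM (median 5735) and from 799 to 12964 (median 7772), so that the cells overlapped more than for mt-Cytb, and its summed ratio was -0.41. By summed counts mt-Co1 had the smallest difference of these genes.

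Other mitochondrial genes were read at low levels: mt-Atp6 at 19.3 and 34.3 CPM (-0.80), mt-Co3 at 9.38 and 13.9 (-0.52), mt-Co2 at 6.27 and 8.25 (-0.35), mt-Nd3 at 0.380 and 2.09, mt-Atp8 at 0.914 and 1.75 and mt-Nd4l at 0.368 and 0.991. For mt-Co2, mt-Co3, mt-Atp6, mt-Nd3 and mt-Nd4l, at least 98.0% of the 50-base words also occur in another annotated gene, and none of these 5 passed 34.3 CPM in GMP. For mt-Nd4 and mt-Co1 the shares were 62.2% and 51.1%. Their levels are uncertain, and levels across mitochondrial genes cannot be ordered from these counts. The 6 genes with 1 CPM and at most 10% shared words had a median of -0.80.

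Detection showed the same direction at equal depth. With each cell thinned to 200000 counts, 86 BMCP and 40 GMP remained, and a member was counted as detected at 10 or more reads. Over the 87 members with 20 CPM, the median share of cells was 41.9% in BMCP and 82.5% in GMP, and 86 of 87 members were detected in a smaller share of BMCP. Over all protein-coding genes with 20 CPM, 75.1% were. The exception was Atp5s. Atp5mpl, for example, was detected in 35 of 86 BMCP (40.7%, exact Clopper-Pearson 95% limits 30.2 to 51.8%) and 39 of 40 GMP (97.5%, 86.8 to 99.9%). Uqcrb was detected in 8 BMCP (9.30%, 4.10 to 17.5%) and 25 GMP (62.5%, 45.8 to 77.3%), with the same uncertainty from its 43.4% shared words. These limits cover counting of the cells read and, with 1 sample per population, test no difference between the populations. A BMCP held 12 to 64 detected members (median 37) and a GMP 44 to 78 (median 63.5), while the median number of all genes detected in this way was 2331 and 3425.

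**Figure D4:**
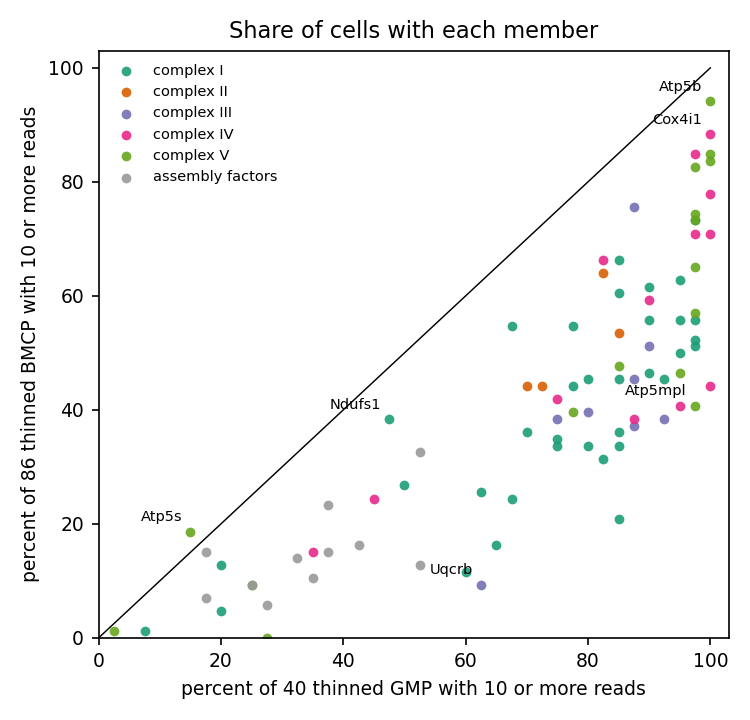
Percent of thinned GMP (x axis) and of thinned BMCP (y axis) with 10 or more reads of each of the 87 members with 20 CPM, by complex, with the line of equality. All members but Atp5s lie below the line, with medians of 82.5% and 41.9%.

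Levels were also compared among the cells that detected a member. For the 83 members with at least 5 detecting cells in each population, the median log2 ratio of the detecting cells' median reads was -0.24, and 53 of 83 were lower in BMCP, where 15.7% of all protein-coding genes were. Over all 6698 such genes the median was 0.61, so that the members' median lay nearer 0 than in the summed counts while that of all genes lay further above it. The median GMP had 89.5 thinned reads of Ndufa4 among detecting cells and the median BMCP 31, and Cox6c had 43 and 14.5. For Ndufs1 the order was the opposite, 69 in BMCP and 27 in GMP.

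Transcript length moved with the ratio. Among other protein-coding genes with 20 CPM, the median log2 ratio was -0.69 for transcripts up to 600 bases, -0.17 from 1000 to 1500 bases and 0.35 above 5000 bases. Members were short, with a median length of 763 bases, and had medians of -1.08 (27 genes), -1.03 (18), -0.68 (8), -0.69 (15), -0.56 (10) and -0.44 (8) in the 6 bins from up to 600 to 3000 bases. Members lay below the other genes in each of these bins. After subtracting the median of other genes of like length, the median of the nuclear-encoded subunits was -0.56 instead of -0.96. The adjusted medians were -0.46 for complex I, -0.39 for II, -0.85 for III, -0.59 for IV, -0.61 for V and -0.56 for the assembly factors, and 19 members in place of 41 stood at least 2-fold lower. The share of all genes at least 2-fold lower after this subtraction was not computed. The part of length in the members' ratios was not tested further.

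**Figure D5:**
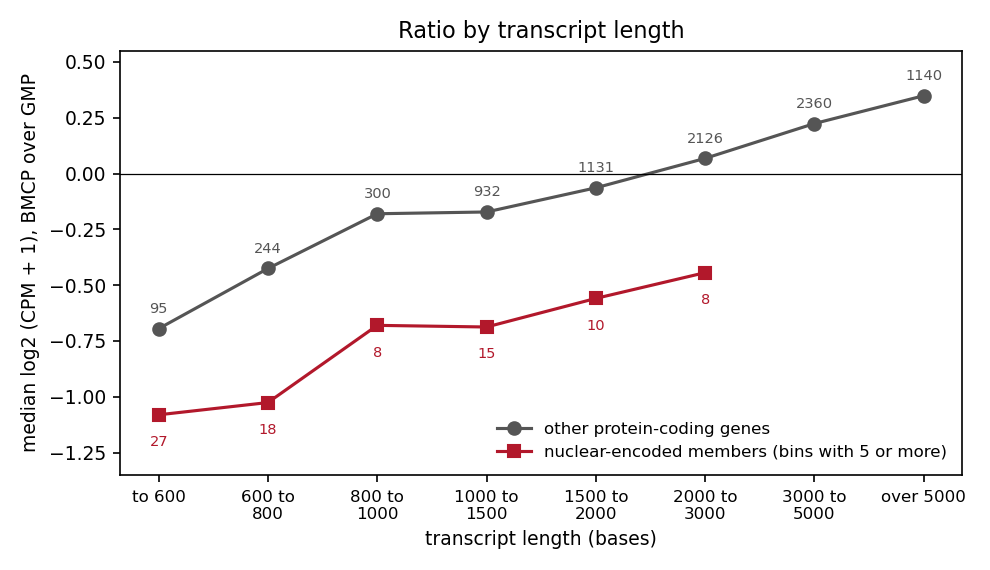
Median log2 ratio of CPM + 1 in BMCP over GMP by transcript length, for nuclear-encoded members (red) and other protein-coding genes (grey) with at least 20 CPM, with the number of genes beside each point. The line of the other genes rises in each step, that of the members runs from -1.08 up to 600 bases to -0.44 between 2000 and 3000 bases with no rise from -0.68 to -0.69 in between, and members lie below the others in each bin shown.

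Other genes of the mitochondrion were described from lists of known function. The mitochondrial ribosome, which translates the 13 mitochondrial messages, was lower for 74 of 78 genes and for 25 of them by 2-fold or more (median -0.74). Mrpl16 was at 22.4 CPM in BMCP and 112 in GMP (-2.27) and Mrpl42 at 30.3 and 126 (-2.03), while Mrpl49 was higher (105 and 43.4, 1.26). Of 22 genes of the citric acid cycle and pyruvate dehydrogenase, 21 reached 1 CPM, all 21 were lower and 5 at least 2-fold, with a median of -0.60. For comparison, 48.8% of all genes with 1 CPM were lower and 21% at least 2-fold lower. The 5 of 21 thus lay near the share of all genes. Pdk1, a kinase that inhibits pyruvate dehydrogenase, was at 0.0594 CPM in BMCP and 147 in GMP (-7.12), while Pdk3 was at 79.2 and 144 (-0.85) and Pdk2 at 29.2 and 37.8 (-0.36, but 0.67 without the highest cell of each population). Fumarase (Fh1) was at 71.2 and 191 CPM (-1.41), and citrate synthase (Cs) at 234 and 256 (-0.13).

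Electron carriers and ubiquinone synthesis were mixed, with 11 of 18 genes lower, 7 at least 2-fold lower, 2 at least 2-fold higher and a median of -0.49. Of all genes with 1 CPM, 48.8% were lower, 21% at least 2-fold lower and 25.8% at least 2-fold higher. The ubiquinone enzymes Coq3, Coq6 and Coq4 stood at 1.67, 10.2 and 10.3 CPM in BMCP and 29.2, 101 and 59.98 in GMP (-3.50, -3.19 and -2.43). Coq3 rested on few cells: without the highest cell of each population it was at 1.15 and 9.28 CPM (-2.26), and 1 BMCP and 3 GMP reached 10 thinned reads. The ratio of Coq4 was -1.44 and -3.76 for the 2 BMCP sets. Coq10b was at 26.5 and 6.07 (1.96, and 2.62 and 1.35 for the 2 sets). Of 19 transport and import genes 17 were lower (median -0.82), including the ADP/ATP carrier Slc25a5 (-1.45), the import subunit Tomm7 (-1.91) and the matrix chaperone Hspa9 (-1.51), while the uncoupling protein gene Ucp2 was at 1073 and 879.8 CPM (0.29). Of 37 further assembly factors with 1 CPM, 23 were lower and 14 higher (median -0.39). At least 2-fold lower were 8 of them, where 21% of all genes were, and at least 2-fold higher were 4, where 25.8% were. Lyrm7, which matures the Rieske protein, was at 28.7 and 4.61 CPM (2.40). Lyrm7 reached 10 thinned reads in 6 BMCP and 1 GMP, was at 20.7 and 1.33 CPM without the highest cell of each population (3.22), and had 3.18 and 1.58 for the 2 BMCP sets. Of 17 genes of mitochondrial biogenesis, 10 were lower (median -0.17), against 48.8% of all genes. This list holds regulators of nuclear genes and factors that transcribe or copy mitochondrial DNA. Among them Tefm, the mitochondrial transcription elongation factor, was at 0.0237 CPM in BMCP, under the floor of 3 counts, and 51.2 in GMP, and the packaging factor Tfam at 74.9 and 134 (-0.83), while the polymerase Polg was at 82.7 and 34.2 (1.25) and the nuclear receptor Esrra at 23.03 and 4.47 (2.14, and 3.10 and 0.90 for the 2 BMCP sets).

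Genes outside the mitochondrion also differed. The cytosolic ribosome was lower for 78 of 82 genes, against 48.8% of all genes with 1 CPM, and for 36 of them by 2-fold or more, against 21%. Its median was -0.92, close to that of the subunits (-0.96). No test set these lists apart from the members. After the same subtraction for length, over genes with 20 CPM, the medians were -0.58 for the cytosolic ribosome, -0.63 for the mitochondrial ribosome and -0.56 for the subunits. The 12 DNA replication genes of S phase were all lower, with a median of -2.01 and sums of 0.0982% and 0.385% of counts. The 12 mitosis genes had a median of -1.59, which was -0.36 and -4.32 for the 2 BMCP sets. The immediate early genes, which many cells switch on within minutes of a stimulus or of handling, were all higher in BMCP for the 7 with 1 CPM, with a median of 3.21. The share of ambiguous reads was 3.77% in BMCP and 6.03% in GMP and that of reads outside genes 17.6% and 11.1%. The part of these differences in the members' ratios was not tested.

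Across cells within a population, the summed subunits varied with ribosomal genes more than with the mitochondrially encoded genes. Spearman's rho with the cytosolic ribosome was 0.58 in 89 BMCP and 0.43 in 41 GMP (Pearson's r 0.64 and 0.46). With the mitochondrial ribosome rho was 0.29 and 0.62, with the S phase genes 0.20 and 0.13, and with the mitochondrially encoded genes 0.08 and 0.27. Complexes I and IV gave rho of 0.53 in BMCP and 0.69 in GMP. These values describe cells that share library preparation and a common denominator, and carry no test. The lowest subunit sums were 0.238% in BMCP 40 and 1.05% in GMP 24, and the highest BMCP value, 2.14%, was in BMCP 5.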

How the data were processed

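RNA was measured in single sorted cells by polyA-primed full-length cDNA amplified over 23 PCR cycles, with spike-in RNA and single-end reads of 50 bases, per the labels' protocols. The protocols name no molecular identifiers, so several reads can stem from 1 molecule. The authors deposited raw read counts, 1 column per cell. The submitters' processing notes list GSNAP, HTSeq 0.5.3p3 and the mm10 build. The release of the gene annotation was not given in the sources read for this work. Symbols, spans and lengths came from GENCODE vM21, which named 45229 of 46078 gene rows. HTSeq's rows without a gene stayed out of all totals and held 15.3% (no gene), 4.57% (ambiguous) and 29.4% (not aligned) of reads in the kept cells.

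Cells needed at least 50000 nuclear-encoded counts and 1000 genes, at most 10% mitochondrial counts and at most 50% spike-in reads, which left out 11 of 141 cells. No pair of cells had identical counts, and, since cells were sorted 1 per well, doublets were not called. Counts were summed per population and scaled to CPM of nuclear-encoded counts, with a pseudocount of 1. Limits of medians are order statistics at 95%, or the range in short lists. Complex I excludes Ndufaf genes and Ndufa4. The length of a gene is the median over its protein-coding transcripts. Shared sequence is the percent of a gene's 50-base words found in transcripts of another gene, and 24 nuclear-encoded members exceeded 10%.

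Named genes were the 3 lowest and 3 highest ratios in each class among members with 20 CPM, all members at least 2-fold apart, paralogue pairs of complex IV, all mitochondrial genes, and up to 3 genes in each direction per list. Not every gene that met these rules is reported here. Further genes were named for their role after their values were seen (among them Pdk2, Pdk3, Cs, Tfam, Gabpa, Gabpb1, Yy1, Ndufa6, Uqcrfs1, Atp5g2, Atp5g3 and Atp5c1). The members, lists and tests were chosen with earlier results of these data known. The NRF1 search used a shortened core, chosen after the longer form had been searched. Steps were tested on simulated data. Alternatives changed the weighting of cells, depth, scaling, pseudocount, filters, cells left out, length and shared sequence. Scripts ran in Python 3.11.15 with pandas 2.3.3, numpy 2.4.6, scipy 1.17.1 and matplotlib 3.10.9.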

Additional observations from a re-analysis of the deposited data

Results flagged for a closer look

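Reads were also counted on rows annotated as processed pseudogenes of members, which no comparison above uses, and 7 of them reached 1 CPM in either population. All 7 were lower in BMCP. Cox6c2 reached 7.07 CPM among BMCP and 26.3 CPM among GMP, Ndufs6b at 13.7 and 38.6, Ndufa11b at 6.61 and 12.9, Ndufab1-ps at 2.86 and 6.72, Uqcrh-ps1 at 12.5 and 15.7, and Uqcrh-ps2 at 5.06 and 7.46. Atp5k-ps2 was at 3.82 CPM in GMP. These rows were singled out because they lie outside the protein-coding members and carry more reads than a count of 0 allows. How many of the reads came from the parent genes was not tested.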

How the results depend on the processing

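Over 11 results and 20 alternatives, 190 values were computed. All 146 medians stayed below 0, 158 values stayed close to those reported, 32 moved and 0 reversed. A median or share counted as close within the limits of the reported value, and a count within a fixed fold of it. These limits are wide in short lists, so the tally is lenient there. For assembly factors, -0.61 with the mean of the cells' CPM still counted as close to -1.08. With counts per spike-in count as the scale, which shifts all ratios by -0.87, the medians were -1.80 for the subunits, -1.69 for complex I, -1.37 for II, -2.07 for III, -1.88 for IV, -1.84 for V, -1.90 for assembly factors and -1.60 for mitochondrial genes. Then 80 members were at least 2-fold lower and 0 at least 2-fold higher. The shares of all genes on this scale were not computed, and the same shift of -0.87 applies to them. With the median of the cells' CPM, the medians were -1.81 for the subunits and -1.85, -2.73, -2.48, -1.69 and -1.16 for complexes I to V. Complex II then had the largest difference of these complexes in place of the smallest. The medians were -3.998 for assembly factors and -0.97 for mitochondrial genes, with 66 members at least 2-fold lower and 0 higher. The median and shares of all genes under this setting were not computed. At 10 thinned reads, 75.1% of protein-coding genes with 20 CPM were detected in a smaller share of BMCP. How far the shift under this setting is general was not tested. Subtracting the median of genes of like length, an alternative added after the data were seen, gave -0.56 for the subunits, -0.46 for complex I, -0.59 for complex IV and 19 members at least 2-fold lower. The share of all genes was not computed for it either. Only 1 member was at least 2-fold higher with the mean of the cells' CPM, and likewise after thinning. Leaving out members with over 10% shared words, also added later, gave -0.92 for the subunits.

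The summed share of the subunits, -0.77 percentage points in BMCP minus GMP, was -0.76 with the mean of cells, -0.70 with mitochondrial counts in the total, -0.78 without the mitochondrial limit, -0.78 without a cell filter and -0.79 without BMCP 12 and GMP 30. It was -0.75 with BMCP numbers 1 to 47 and -0.78 with numbers 48 to 94. The pseudocount, gene filters and per-gene scalings give no other value for this share. The cause of these moves was not tested. No paired analysis was possible because each population is 1 sample, no label links cells to mice, and a replicate number names only a cell.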

Other observations

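Glycolysis, the other main source of ATP, was lower in BMCP for 15 of 20 genes and at least 2-fold lower for 9, with a median log2 ratio of -0.76. Of all genes with 1 CPM, 48.8% were lower and 21% at least 2-fold lower. After subtracting the median of genes of like length, over genes with 20 CPM, the median was -0.98, against -0.56 for the oxidative phosphorylation subunits. Hk3, a hexokinase of myeloid cells, was at 0.0475 CPM in BMCP and 310.2 in GMP (-8.21), while Hk1 was at 197 and 143 (0.46). Ldhb, at 43.5 CPM in GMP, was not read in BMCP, while Ldha was at 809.7 and 1061 (-0.39). The glucose transporter Slc2a3 was higher in BMCP, at 158 and 11.9 CPM (3.62, and 4.33 without the highest cell of each population), and Slc2a1 was at 42.1 and 32.1 (0.38). Pkm, pyruvate kinase, was at 216 and 626 (-1.53).

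Of the cells left out, GMP 41 had 71.5% of its gene counts in mitochondrial genes and 38.8% spike-in reads.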
